A study of Homo sapiens with 6 samples.

Results

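The Hippo pathway restrains the transcriptional coactivators YAP1 and TAZ (encoded by WWTR1). In its kinase cascade the MST kinases, encoded by STK4 (MST1) and STK3 (MST2), activate the LATS kinases, which phosphorylate YAP1 and TAZ so that they are held in the cytoplasm or degraded. Unphosphorylated YAP1 and TAZ enter the nucleus and act through the TEAD factors, which bind DNA but activate little without them. In breast cancer cells YAP1 and TAZ are known as drivers of invasion and metastasis. The 10 genes described here are YAP1, WWTR1, TEAD1, TEAD2, TEAD3, TEAD4, LATS1, LATS2, STK3 and STK4, chosen by exact gene symbol from a count table of 20532 genes and without their target genes. Each symbol matched 1 identifier, and all 10 passed the filter on low counts that left 13710 genes for testing.

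RNA was sequenced from MDA-MB-231 M3 cells, which the labels describe as human breast cancer cells that metastasise to bone. A group of 3 samples had PRMT1, the main enzyme of asymmetric arginine dimethylation, knocked down by siRNA (siPRMT1), and a group of 3 served as controls. Because the labels call the controls untreated/control, it is unknown here if they received a transfection, and the siRNA sequence was not used here. Both groups come from 1 cell line. The samples are named biological replicates with no mention of separate transfections, so p-values measure only how far these samples differ, which may be technical.

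Total counts were between 16968563 and 20545995 in the siPRMT1 samples and between 17921097 and 19645127 in the control samples. PRMT1 had 193, 218 and 181 reads in the siPRMT1 samples and 3160, 2991 and 3072 in the control samples, a level 12.3-fold lower after knockdown (log2 fold change -3.62). CPM are read counts relative to library size, scaled between libraries by TMM. All 6 genes fixed as marks of MDA-MB-231 were present, with a summed level of 4719 to 4765 CPM in siPRMT1 samples and 4652 to 4678 CPM in control samples. These genes did not move as one: CD44, MSN and CAV1 were lower in siPRMT1 samples, and VIM, AXL and PLAU higher. CAV1 averaged 140 CPM in siPRMT1 and 308 CPM in control samples, and VIM 2368 CPM in siPRMT1 and 1817 CPM in control samples. Of 5 luminal or epithelial markers, ESR1 and PGR were at or near 0, and the sum was 24.8 to 27.6 CPM in siPRMT1 samples and 18.9 to 19.8 CPM in control samples, mostly EPCAM. The 3 leukocyte markers summed to 7.88 to 8.65 CPM in siPRMT1 samples and 4.28 to 4.79 CPM in control samples, with PTPRC and CD3E near 0 and CD14 making up the rest. The 2 endothelial markers summed to 19.5 to 20.4 CPM in siPRMT1 samples and 20.8 to 21.2 CPM in control samples, with CDH5 at or near 0. The 3 osteoblast markers summed to 19.6 to 21.4 CPM in siPRMT1 samples and 60.5 to 66.4 CPM in control samples, with SP7 at or near 0. Within that list RUNX2 averaged 16.5 CPM in siPRMT1 samples and 61.5 CPM in control samples, and BGLAP 3.96 CPM in siPRMT1 samples and 1.11 CPM in control samples, so the list did not move as one. The part of these markers in the results was not tested.

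Of the 10 members, 7 fell and 3 rose at an adjusted p under 0.05 (quasi-likelihood test of edgeR, Benjamini-Hochberg adjustment over all tested genes). Both coactivator genes and all 4 kinase genes fell, as did TEAD1. TEAD2, TEAD3 and TEAD4 were the 3 that rose, and of these TEAD2 and TEAD3 were not higher after the correction for base composition and length given further on. Such calls were common: 89.3% of all tested genes passed, 44.3% higher and 45.0% lower, so a pass alone sets no gene apart. Falls of at least 2-fold were made by 21.0% of tested genes and by 7 of the 10 members, and rises of at least 2-fold by 15.3% of tested genes and by 1 member, TEAD4. The median log2 fold change of the members was -1.63, against -0.0082 over all tested genes. These are relative levels: when libraries were scaled by their size alone, the median over all genes shifted by -0.32 (log2). Under that scaling 7 members were lower, 2 were higher and TEAD2 did not pass, while 88.8% of tested genes passed, 33.5% higher and 55.4% lower. In bulk RNA, fewer cells with a transcript and less of it per cell cannot be told apart.

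**Figure D1:**
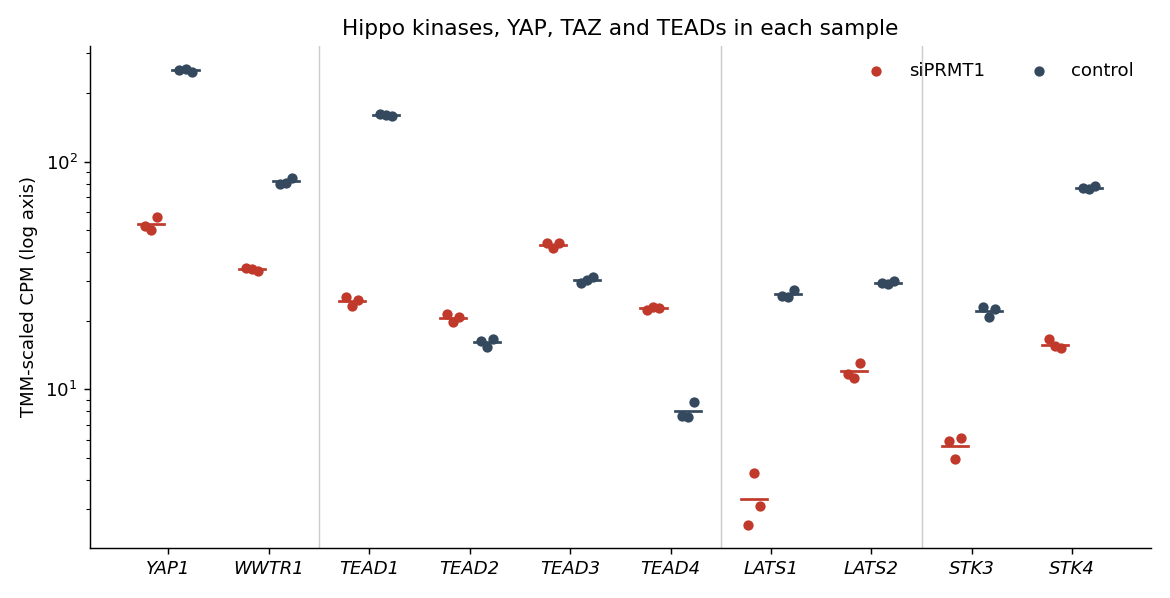
Levels of the 10 genes in each sample, as TMM-scaled CPM on a log axis, with 1 point per sample, siPRMT1 samples left of control samples for each gene, and horizontal bars at the group means. The groups do not overlap for any of the 10 genes, nor for 89.1% of all tested genes. Among the 10, TEAD2, TEAD3 and TEAD4 are the genes with the siPRMT1 samples on top.

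YAP1 (ENSG00000137693, hg38, chromosome 11, 102110447 to 102230579, plus strand), the coactivator that the kinases restrain, had 52.0, 50.2 and 57.2 CPM in siPRMT1 samples and 252.0, 255 and 248 CPM in control samples. Every siPRMT1 sample lay far below every control sample. The mean level was 53.1 ± 3.61 CPM in siPRMT1 samples and 252 ± 3.84 CPM in control samples (SD, n = 3 each), 4.74-fold lower after knockdown. Its log2 fold change of -2.25 (SE 0.0289; adjusted p = 1.07e-290 by edgeR) placed it below all but 3.19% of tested genes.

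The paralogous coactivator gene WWTR1 (ENSG00000018408, hg38, chromosome 3, 149517235 to 149736714, minus strand) had 34.2, 33.8 and 33.04 CPM in siPRMT1 samples, against 79.7, 80.9 and 84.7 CPM in control samples. The groups were well separated here too, but by a smaller factor of 2.43 (log2 fold change -1.28, SE 0.0400, adjusted p = 3.34e-125 by edgeR). The log2 ratio of YAP1 to WWTR1 reads within a sample was 0.60, 0.57 and 0.79 in siPRMT1 samples and 1.66, 1.66 and 1.55 in control samples. YAP1 thus lost more than WWTR1, the ratio being 1.96-fold lower in siPRMT1 samples. The groups did not overlap, and the exact two-sided permutation test gave p = 0.1, the smallest that 3 samples against 3 allow. Per kilobase of exon, the sum of both genes was 12.4 ± 0.514 CPM in siPRMT1 samples and 49.7 ± 0.411 CPM in control samples (SD, n = 3 each), and YAP1 made up 67.6% of it in siPRMT1 samples and 80.3% in control samples.

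The YAP1 promoter is printed because YAP1 had the highest level per length in the control samples, and because it is among the 7 members with a promoter in the RefSeq table used (GRCh38.p14). It spans chr11:102110197-102110496, with 250 bases before and 50 after the start site, and is written 5′ to 3′ on the plus strand with the letters of a TEAD motif in capitals. The motif searched was GGAATG or its reverse complement CATTCC, on both strands.
YAP1: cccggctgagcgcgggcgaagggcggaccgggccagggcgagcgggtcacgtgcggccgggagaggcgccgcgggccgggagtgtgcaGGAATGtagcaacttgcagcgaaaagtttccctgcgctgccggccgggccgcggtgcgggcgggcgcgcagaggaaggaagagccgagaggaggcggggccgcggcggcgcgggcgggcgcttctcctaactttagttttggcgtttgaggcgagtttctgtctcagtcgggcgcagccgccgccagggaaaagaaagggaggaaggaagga
The YAP1 promoter held 1 match, beginning 162 bases before the start site, and was 70.7% G and C with 40 CpG dinucleotides. Of 35116 promoters of the same length, 14.0% held the motif. Their median was 58.7% G and C with 14 CpG.

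The TEAD genes moved in opposite directions. TEAD1 (ENSG00000187079, hg38, chromosome 11, 12674421 to 12944483, plus strand), which encodes a factor found in most tissues, had 25.4, 23.2 and 24.6 CPM in siPRMT1 samples and 162, 160.4 and 158 CPM in control samples. Its level was 6.56-fold lower after knockdown, with a log2 fold change of -2.72 (SE 0.0376; adjusted p = 3.09e-275 by edgeR), and 1.44% of tested genes lay lower. TEAD4 (ENSG00000197905, hg38, chromosome 12, 2959330 to 3040676, plus strand), known for its role in the trophectoderm of the early mouse embryo, went the other way, with 22.2, 23.1 and 22.7 CPM in siPRMT1 samples and 7.67, 7.55 and 8.80 CPM in control samples. It was 2.83-fold higher (log2 fold change 1.5, SE 0.0743, adjusted p = 3.52e-67 by edgeR), and 3.10% of tested genes lay higher.

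TEAD3 (ENSG00000007866, hg38, chromosome 6, 35473597 to 35497064, minus strand) had 43.8, 41.5 and 43.9 CPM in siPRMT1 samples and 29.4, 30.1 and 31.1 CPM in control samples. TEAD2 (ENSG00000074219, hg38, chromosome 19, 49340595 to 49362441, minus strand) had 21.5, 19.7 and 20.7 CPM in siPRMT1 samples and 16.3, 15.3 and 16.7 CPM in control samples. The groups did not overlap for either gene, nor for 89.1% of all tested genes. The differences were small, with log2 fold changes of 0.51 (SE 0.0467) for TEAD3 and 0.35 (SE 0.0646) for TEAD2. Both passed by edgeR's quasi-likelihood test, with an adjusted p = 5.63e-25 for TEAD3 and 8.42e-08 for TEAD2. With scaling by library size alone the log2 fold change of TEAD2 was 0.038 and no longer passed (adjusted p = 0.574 by edgeR), and that of TEAD3 was 0.19. TEAD2 overlaps CD37 and DKKL1 on the opposite strand, and no source used here gives the strand setting of the counting. CD37 had 52, 46 and 39 reads in siPRMT1 samples and 49, 48 and 47 in control samples.

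Because the genes differ in length, the make-up of the TEAD transcripts was compared as CPM per kilobase of exon, with the exon lengths of the deposited table and without the correction. TEAD1 made up 7.05%, 6.65% and 6.85% of the TEAD sum in siPRMT1 samples and 45.0%, 45.0% and 42.9% in control samples. TEAD4 made up 28.9%, 31.1% and 29.6% in siPRMT1 samples and 10.03%, 9.96% and 11.2% in control samples. TEAD1 thus had the highest share in every control sample and the lowest in every siPRMT1 sample. The share of TEAD3 averaged 42.4% in siPRMT1 samples and 29.3% in control samples, and that of TEAD2 20.8% in siPRMT1 samples and 16.0% in control samples. The TEAD sum itself was 33.7, 32.6 and 33.6 CPM per kilobase in siPRMT1 samples and 33.6, 33.3 and 34.4 in control samples, so the groups overlapped. With scaling by library size alone, however, the sum averaged 29.8 CPM per kilobase in siPRMT1 samples and 37.7 in control samples, which do not overlap.

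**Figure D2:**
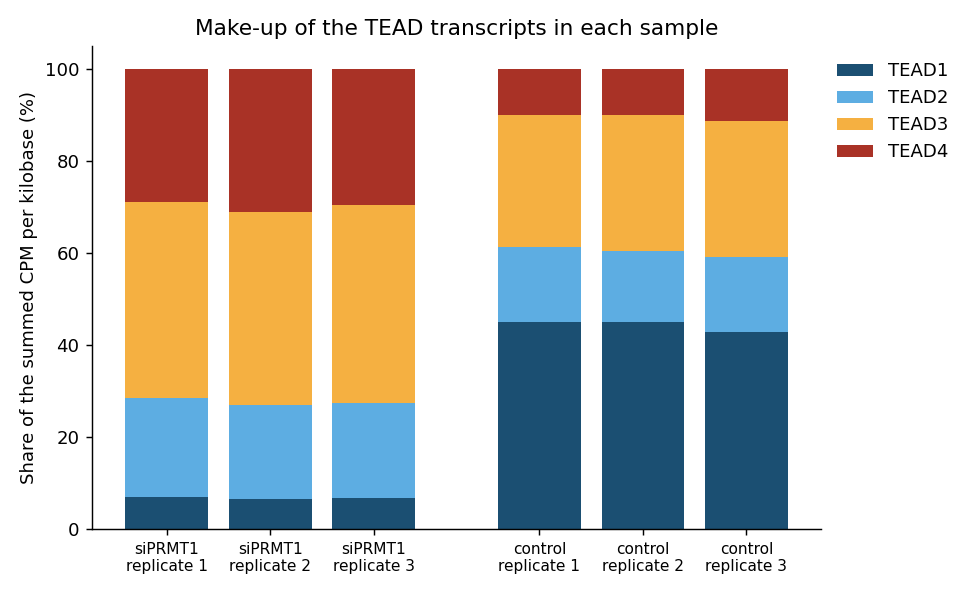
Share of TEAD1, TEAD2, TEAD3 and TEAD4 in the summed TEAD level (CPM per kilobase of exon, in percent), with 1 bar per sample, siPRMT1 samples left of control samples. TEAD1 takes between 6.65% and 7.05% in siPRMT1 samples and between 42.9% and 45.0% in control samples.

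Ratios of reads within a sample do not depend on the scaling between libraries, but they do carry the trends with base composition and length given further on. The log2 ratio of TEAD1 to TEAD4 was 0.20, 0.0068 and 0.12 in siPRMT1 samples and 4.40, 4.41 and 4.17 in control samples, an 18.6-fold shift. From the fold changes corrected for these trends the shift was 4.16-fold. The ratio of TEAD1 to TEAD3 was 9.37-fold lower and that of TEAD1 to TEAD2 8.42-fold lower in siPRMT1 samples, or 2.86-fold and 2.31-fold lower with corrected values. TEAD3 and TEAD2 kept closer to each other, with their log2 ratio averaging -1.06 ± 0.0326 for TEAD2 over TEAD3 in siPRMT1 samples and -0.91 ± 0.0649 in control samples (SD, n = 3 each). Over all 9 pairs of paralogues compared, the groups did not overlap in any pair, and 89.1% of single tested genes had no overlap either. Each pair gave p = 0.1 by the exact two-sided permutation test, also after Benjamini-Hochberg adjustment over the 9 pairs, and no pair could have passed 0.05.

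The TEAD3 promoter is printed as that of a member that was higher in siPRMT1 samples. It spans chr6:35497030-35497329 and is written 5′ to 3′ on the minus strand.
TEAD3: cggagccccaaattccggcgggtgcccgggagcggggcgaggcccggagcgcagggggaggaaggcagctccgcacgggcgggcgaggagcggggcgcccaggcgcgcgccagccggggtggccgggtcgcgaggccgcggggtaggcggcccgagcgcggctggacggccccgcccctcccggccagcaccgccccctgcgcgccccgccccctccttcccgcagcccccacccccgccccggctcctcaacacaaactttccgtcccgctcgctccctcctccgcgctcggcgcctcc
It held no match to the motif and was 81.3% G and C with 44 CpG dinucleotides.

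All 4 kinase genes fell. LATS1 (ENSG00000131023, hg38, chromosome 6, 149658153 to 149718101, minus strand), a kinase that phosphorylates YAP1 and TAZ directly, had 41, 79 and 47 reads in siPRMT1 samples and 562, 511 and 581 in control samples. This corresponds to 2.54, 4.30 and 3.09 CPM in siPRMT1 samples and 25.7, 25.5 and 27.3 CPM in control samples. The siPRMT1 samples spread more widely in proportion than for the other members, replicate 2 being the highest, but remained far below the controls. The level was 7.91-fold lower (log2 fold change -2.96, SE 0.0914, adjusted p = 4.46e-127 by edgeR), the largest fall among the 10 members. Without siPRMT1 replicate 2 the log2 fold change was -3.22. Only 0.934% of tested genes lay lower.

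LATS2 (ENSG00000150457, hg38, chromosome 13, 20973036 to 21061586, minus strand), the paralogous kinase, is also known as a target of YAP1 and TAZ that feeds back on them. It had 11.7, 11.3 and 13.1 CPM in siPRMT1 samples and 29.2, 28.9 and 29.8 CPM in control samples, 2.44-fold lower after knockdown (log2 fold change -1.29, SE 0.0645, adjusted p = 2.25e-66 by edgeR). The log2 ratio of LATS1 to LATS2 reads was -2.20, -1.39 and -2.08 in siPRMT1 samples and -0.19, -0.18 and -0.12 in control samples. LATS1 thus fell below LATS2 by a further factor of 3.31 (exact two-sided permutation p = 0.1), which was 1.67 from the corrected fold changes. Per kilobase of exon the LATS sum was 2.53 ± 0.153 CPM in siPRMT1 samples and 8.30 ± 0.195 CPM in control samples (SD, n = 3 each). LATS2 made up between 79.9% and 87.5% of that sum in siPRMT1 samples and between 62.2% and 63.3% in control samples.

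Both LATS promoters are printed, since the paralogues fell by different factors. They are written 5′ to 3′ on the minus strand, that of LATS1 at chr6:149718052-149718351 and that of LATS2 at chr13:21061537-21061836, again with the TEAD motif in capitals.
LATS1: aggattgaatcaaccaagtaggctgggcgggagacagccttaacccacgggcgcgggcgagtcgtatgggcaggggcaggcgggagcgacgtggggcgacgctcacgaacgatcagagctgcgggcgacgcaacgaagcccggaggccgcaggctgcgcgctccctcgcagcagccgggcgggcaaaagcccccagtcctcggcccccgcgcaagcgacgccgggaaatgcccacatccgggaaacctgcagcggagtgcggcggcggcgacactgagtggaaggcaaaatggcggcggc
LATS2: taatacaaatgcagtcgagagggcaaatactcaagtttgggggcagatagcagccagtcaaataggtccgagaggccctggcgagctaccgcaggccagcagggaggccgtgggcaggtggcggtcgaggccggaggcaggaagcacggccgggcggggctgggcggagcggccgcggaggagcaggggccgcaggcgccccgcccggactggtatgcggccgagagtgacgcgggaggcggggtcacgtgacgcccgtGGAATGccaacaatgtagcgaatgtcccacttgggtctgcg
LATS2 held 1 match, beginning 9 bases after the start site, and LATS1 none. The LATS1 promoter was 70.0% and the LATS2 promoter 67.7% G and C, with 38 and 29 CpG dinucleotides. RefSeq lists another start site for LATS1, with no motif. No match was found in the listed promoters of WWTR1, TEAD2 and STK4. Those listed for WWTR1 lie 33441 and 78689 bases from its gene start in the count table, where no promoter was searched. TEAD1, TEAD4 and STK3 have no promoter in the RefSeq set used, so theirs were not searched for the motif. A match of letters is a description and not a binding site.

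STK4 (ENSG00000101109, hg38, chromosome 20, 44966494 to 45075608, plus strand), an MST kinase at the top of the cascade, had 16.6, 15.4 and 15.2 CPM in siPRMT1 samples and 76.3, 76.1 and 77.9 CPM in control samples. It was 4.88-fold lower (log2 fold change -2.29, SE 0.0486, adjusted p = 1.74e-190 by edgeR). STK3 (ENSG00000104375, hg38, chromosome 8, 98371228 to 98942827, minus strand), its paralogue, had 5.96, 4.95 and 6.11 CPM in siPRMT1 samples and 22.9, 20.8 and 22.5 CPM in control samples. It was 3.89-fold lower (log2 fold change -1.97, SE 0.0834, adjusted p = 2.37e-84 by edgeR). STK3 overlaps KCNS2 on the opposite strand, which had 0 reads in each siPRMT1 sample and 0, 2 and 0 in the control samples. The MST genes were closer in their falls than the LATS genes: the log2 ratio of STK3 to STK4 reads averaged -1.48 ± 0.165 in siPRMT1 samples and -1.80 ± 0.0688 in control samples (SD, n = 3 each; exact two-sided permutation p = 0.1). From the corrected fold changes this ratio was 1.05-fold higher in siPRMT1 samples, against 1.25-fold uncorrected. Per kilobase of exon their sum was 1.21 CPM in siPRMT1 samples and 5.45 CPM in control samples, 4.51-fold lower.

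The order of the genes by CPM per kilobase of exon differed between the groups. In siPRMT1 samples TEAD3 stood first at 14.1, before TEAD4 at 9.95, YAP1 at 8.42, TEAD2 at 6.93 and WWTR1 at 4.03 CPM per kilobase. Below these came TEAD1 at 2.28, LATS2 at 2.14, STK4 at 0.758, STK3 at 0.45 and LATS1 at 0.390 CPM per kilobase. TEAD1 and LATS2 did not differ beyond their spread, nor did STK3 and LATS1. In control samples YAP1 stood first at 39.9, before TEAD1 at 14.96, TEAD3 at 9.90 and WWTR1 at 9.79 CPM per kilobase, the samples of TEAD3 and WWTR1 overlapping. TEAD2 at 5.40 and LATS2 at 5.22 overlapped as well, as did STK4 at 3.70 and TEAD4 at 3.52, and LATS1 at 3.08 and STK3 at 1.75 CPM per kilobase came last. The exon lengths of STK3 (12604 bases) and STK4 (20763 bases) in the deposited table far exceed their canonical transcripts (2833 and 6366 bases). With canonical lengths STK4 stood at rank 4 and STK3 at rank 6 in control samples, instead of ranks 7 and 10, and at ranks 7 and 9 in siPRMT1 samples, instead of 8 and 9. Ranks of other members moved as well, such as that of TEAD3 from 3 to 5 in control samples. WWTR1 at 16.2 and TEAD3 at 10.1 CPM per kilobase then no longer overlapped in control samples.

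Across all genes, the fold change moved with base composition and length of the transcript. The median log2 fold change was -0.78 for the 5132 tested genes whose canonical transcript has under 45% G and C, and 0.80 for the 4262 with at least 55%. It was -0.84 for the 3598 genes with transcripts of at least 5000 bases and 0.57 for the 6253 genes under 3000 bases. YAP1 (-2.25), TEAD1 (-2.72), LATS1 (-2.96) and STK4 (-2.29) were below -2.02, the value that 10% of the low GC genes lie under. WWTR1 (-1.28), LATS2 (-1.29) and STK3 (-1.97), which also fell, were not. Those below it have both low GC content and long transcripts, whereas the medians take each trait by itself. The canonical transcript of STK3 has 2833 bases and 38.4% G and C, the lowest GC content of the members. Its exon length in the deposited table is 12604 bases. Among the members, the 3 that rose have the highest GC content, with 58.1% for TEAD2, 59.8% for TEAD3 and 60.4% for TEAD4. Their transcripts have 2175, 2986 and 1710 bases. The log2 fold changes of TEAD2 (0.35) and TEAD3 (0.51) were below 0.80, the median of the high GC genes. That of TEAD4 (1.5) was close to 1.47, the value that 10% of the high GC genes lie above. Of the members that fell, LATS2 has 51.8%, and the other 6 range from 38.4% for STK3 to 43.5% for YAP1. Except for STK3, the transcripts of the genes that fell are longer than 5000 bases, up to 9417 for TEAD1. The 3' untranslated region is 7518 bases long in TEAD1 and 201 bases in TEAD4. Over the 10 members, which share their libraries, Spearman's rho between log2 fold change and GC content was 0.72, and between log2 fold change and transcript length -0.87. With the corrected fold changes described next, both remained close to that, at 0.71 and -0.84.

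**Figure D3:**
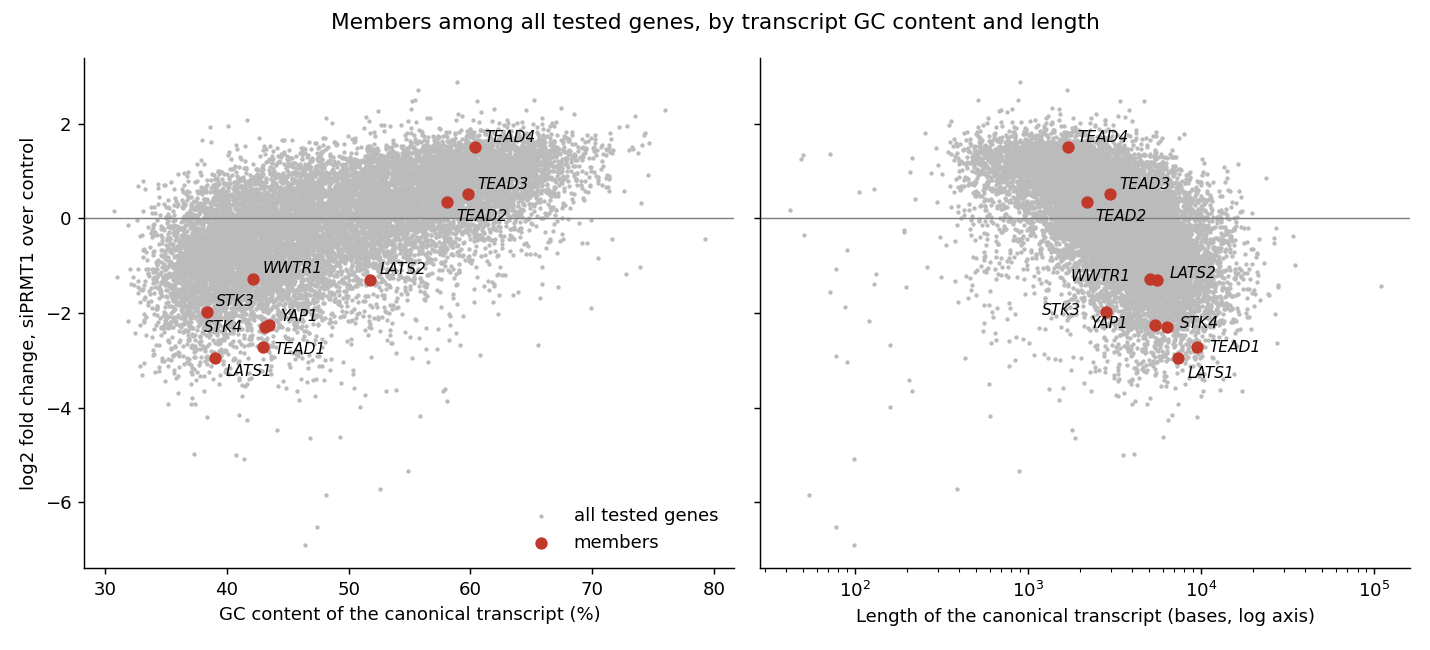
Log2 fold change (siPRMT1 over control) of all tested genes (grey) and of the 10 members (red) against the GC content in percent (left) and the length in bases on a log axis (right) of the canonical transcript. The members that fell by at least 2-fold lie at 51.8% G and C or below, and TEAD2, TEAD3 and TEAD4 at 58.1% or above.

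A correction fitted over all tested genes subtracted the fitted trends with GC content and length from each sample. Whether a trend over all genes remained after it was not tested. After it, 8 members were lower, 1 was higher and 1 did not pass (edgeR, Benjamini-Hochberg adjustment), while 80.5% of tested genes passed, 35.6% lower and 44.9% higher. The corrected log2 fold changes were -1.40 for YAP1 and -0.40 for WWTR1, -1.68 for LATS1 and -0.94 for LATS2, -1.25 for STK3 and -1.32 for STK4. TEAD1 stood at -1.58 and TEAD4 at 0.47, both past the threshold. TEAD2 turned to -0.37 (SE 0.0623; adjusted p = 5.52e-07 by edgeR), and TEAD3 was at -0.069 and did not pass (adjusted p = 0.148 by edgeR). The median of the members was then -1.09, against 0.068 over all tested genes. At least 2-fold falls remained for 5 members, YAP1, TEAD1, LATS1, STK3 and STK4, and were made by 8.51% of tested genes.

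**Figure D4:**
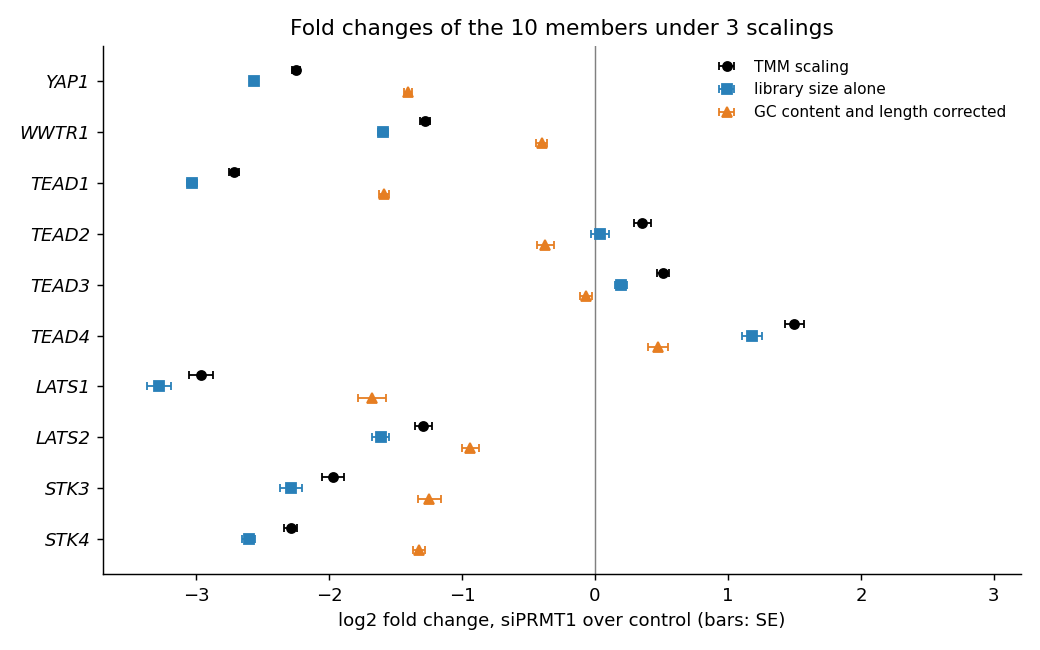
Log2 fold changes (siPRMT1 over control) of the 10 members with TMM scaling (circles), with scaling by library size alone (squares) and after the GC content and length correction (triangles), with bars for the SE. YAP1, WWTR1, TEAD1 and the 4 kinase genes lie below 0 and TEAD4 above 0 in each, and TEAD2 and TEAD3 change sides.

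The other pathway genes were read from 8 lists with 76 entries, of which 75 are in the table and 70 were tested. Of these, 53 fell, 16 rose and 1 did not pass, with a median log2 fold change of -0.65, but after the correction 34 were lower and 29 higher with a median of -0.056. Beside these counts and those of each list below, 45.0% of all tested genes were lower and 44.3% higher. After the correction 35.6% of all tested genes were lower and 44.9% higher. The core adaptors and upstream scaffolds mostly fell, with 9 of 11 tested lower, 1 higher and a median of -1.72 (corrected median -0.70). FRMD6, which encodes a FERM protein upstream of the cascade, had 23.4 ± 0.606 CPM in siPRMT1 samples and 165 ± 4.32 CPM in control samples (SD, n = 3 each; log2 fold change -2.82, corrected -1.91). The LATS activator gene MOB1A fell to 42.5 CPM, against 156 CPM in controls (-1.87, corrected -0.70), and its paralogue MOB1B fell as well (-2.86, corrected -1.26). The MST-activating kinase gene TAOK1 fell (-2.18) and TAOK2 rose (0.63), both keeping their sign after the correction (-0.81 and 0.30). NF2, which encodes merlin, was at 4.84 ± 0.942 CPM in siPRMT1 and 4.42 ± 0.493 CPM in control samples (SD, n = 3 each) and did not pass (adjusted p = 0.292 by edgeR). Without siPRMT1 replicate 1 its log2 fold change was 0.28 and passed (adjusted p = 0.0455 by edgeR), against 0.14 with all samples. The MST adaptor gene SAV1 fell (-1.02, corrected -0.49).

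Kinases that act beside MST and LATS were divided, with 8 of 14 lower and 6 higher and a median of -0.53 (corrected 0.14). MINK1, of the MAP4K group that can activate LATS, rose (0.94, corrected 0.65), whereas MAP4K4 fell (-0.39) but was higher after the correction (0.45). STK38, a relative of LATS, fell (-0.66, corrected -0.21), and STK24 stood at 0.062, at 0.68 after the correction and at -0.25 when scaled by library size only. The call of STK24 (adjusted p = 0.0361 by edgeR) was lost without siPRMT1 replicate 1 or 2 or control replicate 1 or 2 (log2 fold change 0.054 to 0.059). Of the 6 RASSF genes, whose products bind MST kinases, 4 fell and 2 rose (median -0.72, corrected -0.32). RASSF3 (-1.09, corrected -0.56) and RASSF5 (-0.57, corrected -0.54) fell. RASSF1 rose (0.82) but stood at -0.10 after the correction, and RASSF4 rose (0.24) but lay at -0.078 when scaled by library size only. In the STRIPAK complex, which removes the activating phosphate from MST kinases, 13 of 15 genes fell and 2 rose, with -0.64 as their median. With the correction 5 were lower and 8 higher, and the median was 0.12. The genes that rose were STRN4 (0.96, corrected 0.30) and the phosphatase scaffold PPP2R1A (0.58, corrected 0.79). PPP2CA (-0.086) and MOB4 (-0.67) fell but were higher after the correction (0.81 and 0.51).

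Among the LIM proteins that bind LATS, AJUBA fell (-1.0, corrected -0.89) and WTIP rose (1.09, corrected 1.5). LIMD1 fell (-0.80) but stood at 0.066 after the correction. Of 10 tested genes for proteins that bind YAP1 or TAZ in the cytoplasm, 8 fell and 2 rose (median -0.50, corrected -0.31). With the correction 5 were lower and 5 higher. Falls of at least 2-fold were made by 4 of the 10 without the correction and by 4 with it, against 21.0% and 8.51% of all tested genes. The most abundant of the 10 encode 14-3-3 proteins, which hold phosphorylated YAP1. YWHAZ had 1041 ± 11.3 CPM in siPRMT1 samples and 1566 ± 22.4 CPM in control samples (SD, n = 3 each; -0.59), but lay at 0.44 after the correction. YWHAE rose (0.41, corrected 0.59). YWHAQ (-0.15) and YWHAB (-0.050) fell but were higher after the correction (0.096 and 0.48). Without control replicate 1 YWHAB did not pass (-0.022, adjusted p = 0.324 by edgeR). SFN, the 14-3-3 sigma gene, was the other that rose (1.72, corrected 0.46). Of 9 genes for the turnover of YAP1 and TAZ, 7 fell and 2 rose (median -0.41, corrected 0.17). The ubiquitin ligase subunit gene SKP1 (0.67) and the casein kinase gene CSNK1D (0.88) rose, with corrected values of 1.91 and 0.56. For SKP1 the correction used its canonical transcript of 9386 bases, and other transcript lengths were not tried. CUL1 (-0.20) and NEDD4L (-0.79) fell but were higher after the correction (0.25 and 0.17).

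Of the VGLL genes, whose products bind TEADs in competition with YAP1 and TAZ, VGLL4 had 53.1 ± 0.637 CPM in siPRMT1 samples and 69.997 ± 1.00 CPM in control samples (SD, n = 3 each; log2 fold change -0.40, corrected -0.19). VGLL3 fell to 0.466 ± 0.0890 CPM, against 4.98 ± 0.738 CPM in controls (-3.41, corrected -1.91). VGLL1 was at 0 in every sample and VGLL2 was below the filter on low counts.

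**Figure D5:**
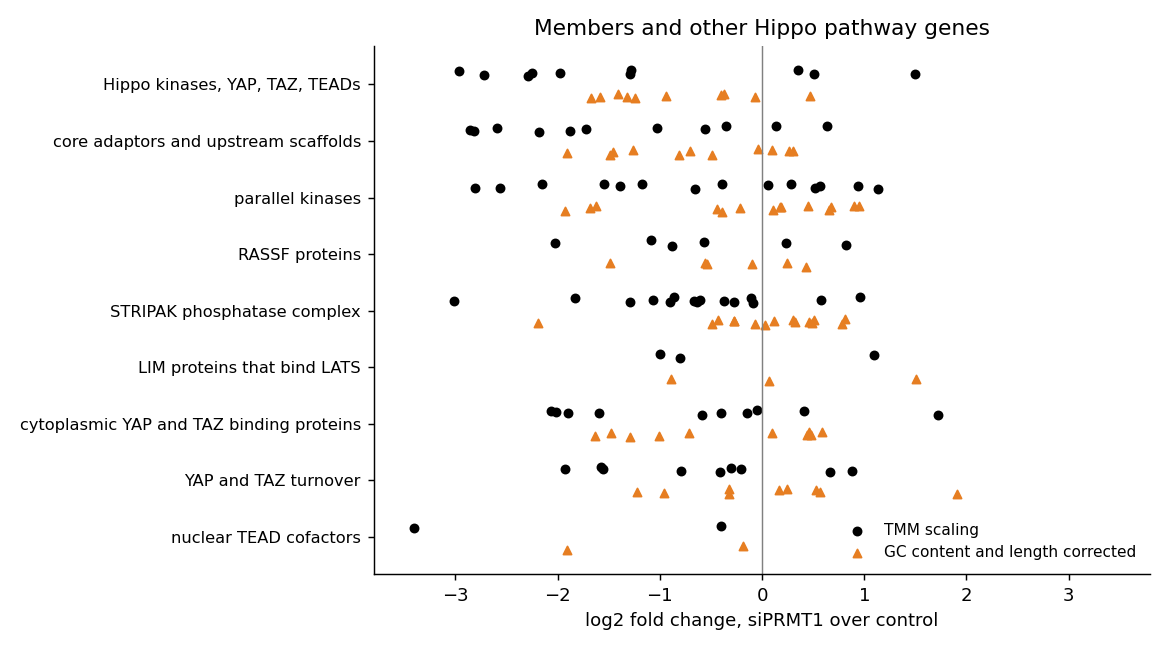
Log2 fold changes (siPRMT1 over control) of the 10 members and of the tested genes of 8 other Hippo pathway lists, 1 point per gene, with TMM scaling (circles) and after the GC content and length correction (triangles). The members have a median of -1.63, or -1.09 corrected, and the 70 other genes a median of -0.65, or -0.056 corrected.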

How the data were processed

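RNA-seq was made from 3 siPRMT1 and 3 control samples with a stranded mRNA kit, per the labels' protocols. The authors deposited 1 table of read counts per gene, with symbols, coordinates and exon lengths. The genome build was hg38, and the tools were STAR 2.7.6a, fastp 0.23.2, edgeR 3.40.2, Subread 1.5.1 and featureCounts, per the submitters' processing notes, which give no roles here. No source used here gives the annotation release, the strand setting or how duplicate reads were treated. YAP1 has processed pseudogenes. YAP1, WWTR1, TEAD1, TEAD2, LATS1, LATS2, STK3 and STK4 overlap annotated genes on the opposite strand. STK3 also overlaps processed pseudogenes on its own strand. Apart from CD37, DKKL1 and KCNS2, these pseudogenes and overlapping genes are not in the count table and were not analysed here.

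Counts were analysed in R 4.3.3 with edgeR 4.0.16 (filterByExpr, TMM, glmQLFit, glmQLFTest, no replicate block) and Benjamini-Hochberg adjustment over 13710 genes. Each standard error was derived from the log2 fold change and its F value. The common dispersion, 9.77e-05, is the lowest value the default search allows. Within groups, chi-square per degree of freedom between samples was between 1.05 and 1.38 (genes of 20 reads or more), so no samples were merged. Paralogue ratios were tested by exact permutation over samples. The correction fitted splines with 5 degrees of freedom on GC content and length of the GENCODE 44 canonical transcript per sample and removed them as offsets (13694 genes). Alternatives also used DESeq2 1.42.0 and limma 3.58.1.

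The members and lists were chosen with earlier results of these data known. Named were all members, PRMT1, the 4 most abundant genes of each list, and single genes that moved against their list. MOB1B, SAV1, NF2 and SFN were named after their values were seen. Of 20532 identifiers, 20472 were found in GENCODE 44.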

Additional observations from a re-analysis of the deposited data

How the results depend on the processing

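Across 16 alternatives, YAP1, WWTR1, TEAD1, LATS1, LATS2, STK3, STK4, TEAD4 and PRMT1 kept their direction and passed. TEAD2 reversed under the GC content and length correction (-0.37, and -0.37 with the replicate block and the correction together) and TEAD3 likewise (-0.069 and -0.067), and TEAD2 did not pass with library size alone. The count of higher members was 1 with the correction, with and without the replicate block, instead of 3, and that of the other pathway genes 29 higher and 34 lower in both, instead of 16 and 53; the cause was not tested. Of the other genes named, MAP4K4 (0.45), PPP2CA (0.81), MOB4 (0.51), LIMD1 (0.066, and 0.067 with the replicate block), YWHAZ (0.44), YWHAQ (0.096), YWHAB (0.48), CUL1 (0.25), NEDD4L (0.17) and RASSF1 (-0.10) reversed under the correction, with and without the replicate block. NF2 (-0.18), STK24 (-0.25) and RASSF4 (-0.078) reversed with library size alone. STK24 also did not pass under DESeq2, upper-quartile scaling, no filter and leaving out any of 4 samples, nor YWHAB under DESeq2 or without control replicate 1, while NF2 passed without siPRMT1 replicate 1. The higher share of called genes was 55.8% with the correction and 37.7% with library size alone, instead of 49.6%. Among the other pathway genes it was 46.0% and 18.2%, instead of 23.2%, and among the members 11.1% and 22.2%, instead of 30.0%.

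Leaving out 1 sample at a time, the log2 fold change of LATS1 ran from -3.22 to -2.80, and that of YAP1 from -2.30 to -2.20. The replicate numbers did not pair the samples: deviations of same-numbered samples correlated at -0.0104, 0.0366 and 0.00151, and not every sample correlated best with its own number. With the replicate block alone 6063 genes were higher and 6156 lower, against 6078 and 6165 without, and no member changed its call. The direction of all 9 paralogue ratios held with a pseudocount of 0.5 reads and without each sample. It also held with corrected fold changes, an alternative added after seeing the data and not tested, where the shift of TEAD1 over TEAD4 was 4.16-fold instead of 18.6-fold. Family shares moved when canonical transcript lengths replaced the deposited exon lengths. YAP1 then made up 59.5% of its family sum in siPRMT1 samples and 74.2% in control samples. In the same order TEAD1 made up 6.52% and 43.4%, TEAD2 23.9% and 18.9%, TEAD3 36.3% and 25.8%, and TEAD4 33.3% and 11.9%. LATS2 made up 82.8% and 59.8%, and STK4 55.3% and 60.8%. Depth limits LATS1 most, at 41 to 79 reads in siPRMT1 samples.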
